A study of Mus musculus with 7 samples.

Results

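The nuclear-encoded genes of the mitochondrial respiratory chain were examined in fetal blood progenitors with and without Brd9. Members were the gene symbols of the deposited count table that name subunits of complexes I to V (the Nduf, Sdh, Uqcr, Cox and Atp5 families), without pseudogene symbols and with at least 70 counts summed over the 7 libraries. This gave 80 genes of 35976 symbols, namely 35 of complex I, 4 of complex II, 8 of complex III, 16 of complex IV and 17 of complex V. The choice used symbols and summed counts, not the difference between the groups. Ndufa4 and its paralogue Ndufa4l2 were placed with complex IV, since the Ndufa4 protein is a cytochrome c oxidase subunit despite its name. Cox7a2l, Atp5s and Atp5sl carry family names but are not counted among the core subunits of the complexes.

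The respiratory chain sits in the inner mitochondrial membrane. Complex I takes electrons from NADH and complex II from succinate, complex III passes them from ubiquinol to cytochrome c, and complex IV hands them to oxygen. The protons pumped by complexes I, III and IV drive the ATP synthase, complex V. Most subunits are encoded in the nucleus and assemble in fixed proportions with a small set encoded in mitochondrial DNA. Progenitors of the fetal liver divide quickly, and those of the red cell lineage need mitochondria for haem and iron-sulphur cluster synthesis as well as for ATP.

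RNA came from lineage-negative E14.5 fetal liver cells, that is, cells left after magnetic removal of those bearing mature blood lineage markers. The controls were 3 libraries of genotype CD45.2(+) Brd9fl/fl, whose Brd9 alleles carry loxP sites, with no recombinase in the label. The knockouts were 4 libraries of genotype Vav1-iCre CD45.2(+) Brd9fl/fl, in which a recombinase driven by the Vav1 promoter, active in blood cells, deletes Brd9, a bromodomain protein and subunit of the non-canonical BAF remodeller of chromatin. All were C57BL/6. No control carried the recombinase, so its own effects and those of Brd9 loss cannot be told apart. Whether a library came from 1 embryo or several is not in the labels, and p-values here reflect only library-to-library spread, part of which may be technical.

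Brd9 itself was lower in every knockout library. It stood at 30.6, 32.2 and 36.5 CPM (counts scaled to library size) in the controls and at 8.57, 11.9, 13.2 and 12.2 CPM in the knockouts, a log2 fold change of -1.53 (SE 0.15, edgeR quasi-likelihood test, adjusted p = 0.0037; exact permutation p = 0.0286, two-sided, the smallest that 35 splits allow). Libraries held between 18748885 and 23571878 counts. Stem and progenitor markers summed to between 840 and 1140 CPM in the controls and between 641 and 865 CPM in the knockouts. Markers of hepatocytes, which a depletion of mature blood cells does not target, summed to 11355 to 19574 CPM and 13871 to 25100 CPM. Neutrophil granule markers summed to 5071 to 9019 CPM in the controls and 1711 to 3875 CPM in the knockouts, and erythroid markers to 3721 to 6227 CPM and 5867 to 7757 CPM. No marker of these 4 lists was at 0. In bulk RNA, fewer cells of a type and less RNA per cell cannot be told apart.

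None of the 80 genes was called changed between control and knockout by edgeR's quasi-likelihood test, against 0.559% of all 14679 genes tested, which is 82 genes. The smallest adjusted p among the members was 0.515, for Uqcrq. At an unadjusted p under 0.05 the count was also 0 of 80, against 10.9% of all tested genes. DESeq2 and limma-voom called 0 members as well, against 2.68% and 0.504% of all genes, and at an unadjusted p under 0.05 DESeq2 had 1 member, Ndufa4l2, and limma-voom 0, against 10.7% and 10.6% of all genes. With no filter on low counts edgeR called 0 members, against 0.937% of all genes, and 3 had an unadjusted p under 0.05 (Cox6b2, Ndufa4l2 and Uqcrq), against 8.41%. In the authors' deposited table no member passed an adjusted p of 0.05, against 2.19% of its genes, and the lowest adjusted p was 0.475, for Ndufa4l2. For no member did the control and knockout libraries separate, against 11.2% of all tested genes whose groups did not overlap.

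The intervals of the fold changes were narrow for most members. For 76 of the 80 genes the 95% interval lay within 1.5-fold in either direction, against 57.2% of all tested genes, and for 78 it lay within 2-fold, against 78.5%. The exceptions at 1.5-fold were Cox6b2, Ndufa4l2, Cox7a1 and Cox4i2, all minor isoform or paralogue genes of complex IV. Of the 80 point estimates, 75 were above 0, against 52.4% of all genes. The median log2 fold change was 0.11, an 8.2% higher level in the knockouts, with an interquartile range of 0.07 to 0.15, and the median of all tested genes was 0.01. Without control replicate 2 and knockout replicate 3 the median of the members was -0.022. These were the lowest control and the highest knockout library for the members, so leaving out both was bound to lower their median.

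**Figure D1:**
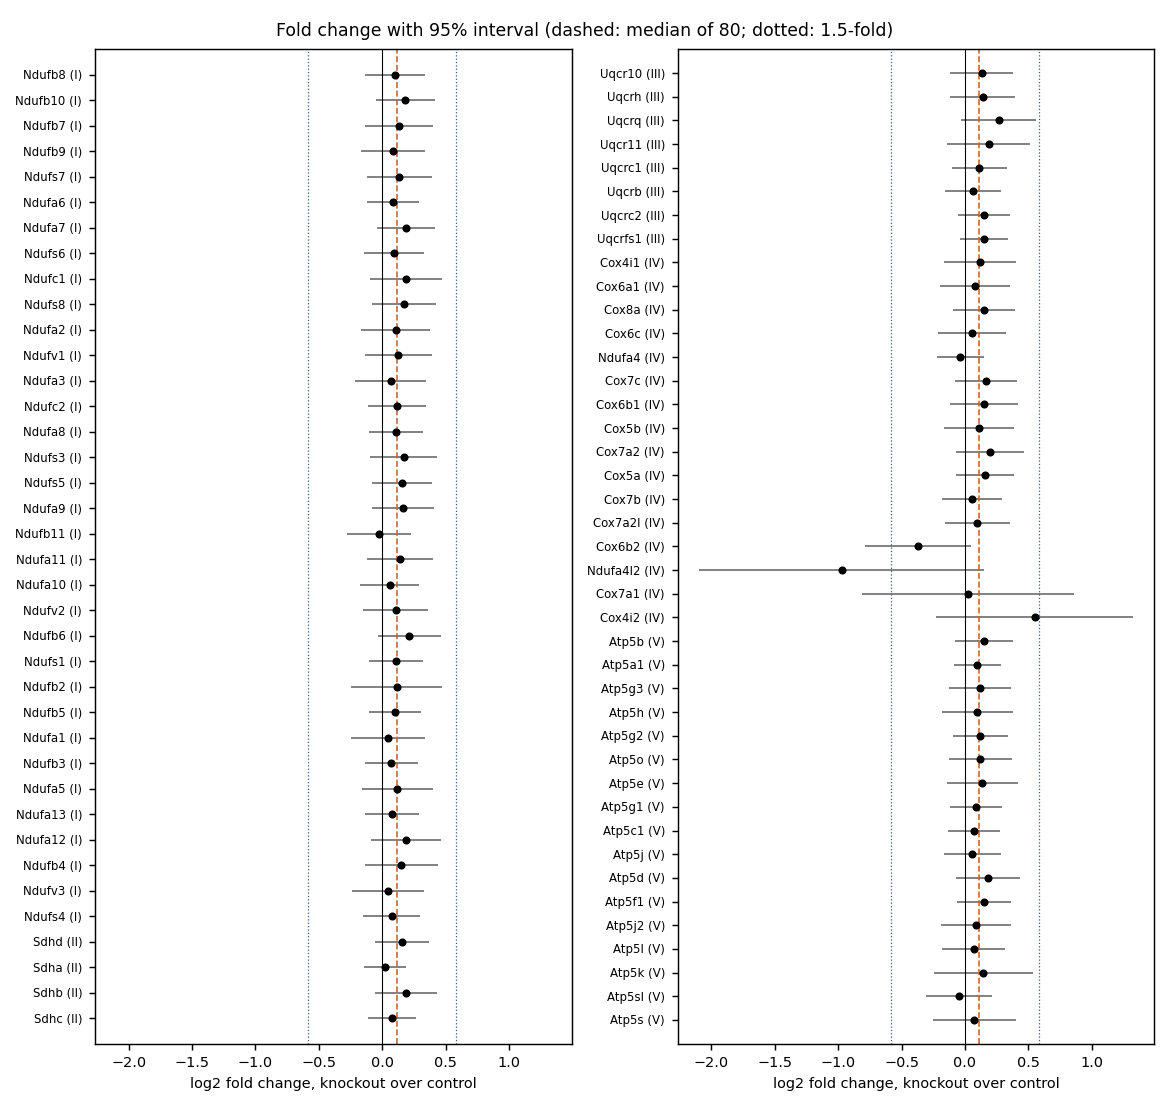
Log2 fold change (knockout over control, horizontal axis) with its 95% interval for the members drawn, by complex and ordered by level; the dashed line is the median of 0.11 and the dotted lines mark 1.5-fold either way. Every interval drawn includes 0, and only Cox6b2, Ndufa4l2, Cox7a1 and Cox4i2 reach past a dotted line.

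The members moved together from library to library. Relative to each gene's mean log2 level over the 7 libraries, the median member stood at 0.00, -0.19 and -0.03 in control replicates 1 to 3 and at 0.07, -0.04, 0.27 and -0.12 in knockout replicates 1 to 4. Knockout replicate 3 was therefore 20.3% above the mean and control replicate 2 was 12.3% below it, while the other 2 controls lay within the range of the knockouts. Knockout replicate 3 had the highest level of 66 of the 80 genes, against 22.3% of all tested genes that peaked there. Control replicate 2 had the lowest level of 56 of the 80, against 19.8% of all genes. As a share of all counts the members took up 1.23%, 1.13% and 1.22% in control replicates 1 to 3 and 1.29%, 1.23%, 1.42% and 1.18% in knockout replicates 1 to 4.

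The library medians averaged -0.07 ± 0.10 (SD, n = 3) in the controls and 0.05 ± 0.17 (SD, n = 4) in the knockouts, a difference smaller than the spread within the knockout group. Without knockout replicate 3 the median log2 fold change of the members was 0.037, with 60 of 80 above 0. Without control replicate 2 it was 0.050, with 68 above 0. Without knockout replicate 1 it was 0.101, with 75 above 0. Leaving out any of the remaining libraries raised the median above its value over all libraries. Without knockout replicate 4 it was 0.171, with 76 above 0. That fit had 8 members at an unadjusted p under 0.05 by edgeR, against 12.1% of all genes. The median was 0.156 without control replicate 1 (74 above 0), 0.141 without knockout replicate 2 and 0.136 without control replicate 3. Without both control replicate 2 and knockout replicate 3 it was -0.022, with 32 above 0. That last setting was chosen after the library values were seen. It removes the lowest control and the highest knockout, so it was bound to lower the median.

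The same libraries were highest and lowest in each complex. In knockout replicate 3 the median deviation was 0.27 for complex I, 0.15 for complex II, 0.24 for complex III, 0.31 for complex IV and 0.21 for complex V. In control replicate 2 these medians were -0.19, -0.18, -0.22, -0.16 and -0.19. After each library's median was subtracted, the typical member varied little, with a median SD of 0.062 on the log2 scale over the 7 libraries and 69 of 80 genes under 0.1. The lowest SD was 0.021, for Uqcrc1, a core protein of complex III, and the highest was 0.908, for Ndufa4l2. The levels kept their order between groups, with a Spearman rho of 0.994 between control and knockout means over the 80 genes, which is a description across genes that share libraries.

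**Figure D2:**
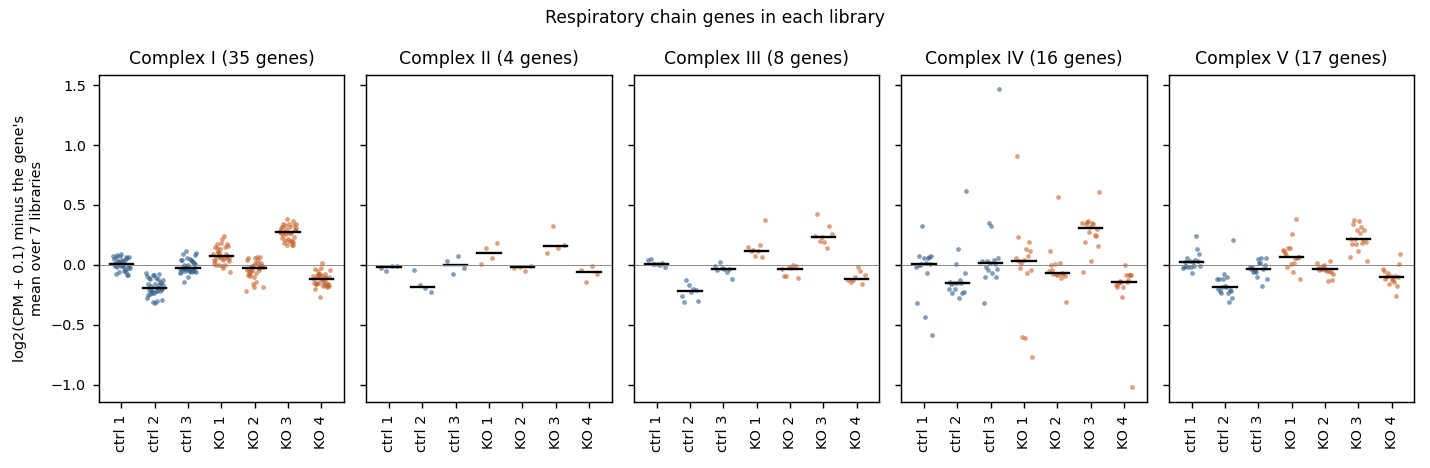
Each point is a gene, plotted as its log2(CPM + 0.1) minus its own mean over the 7 libraries (vertical axis) in each control (blue) and knockout (orange) library, by complex; black bars are medians. The points of a library sit close together in every complex, highest in knockout replicate 3 and lowest in control replicate 2, and the points far from the bars are mostly complex IV isoform genes.

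Promoter sequence is shown as a description of the members, most of which moved together. Cox6b2, described below, kept an SD of 0.36 after library medians were subtracted. Within the groups it still had its lowest control value in control replicate 2 and its highest knockout value in knockout replicate 3. Whether promoter sequence bears on these levels was not tested. RefSeq windows of GRCm38.p6, from 250 bases before to 50 bases after a transcript start, were found for 65 of the 80 members, giving 71 windows. Motifs were searched as exact letters on both strands. The nuclear respiratory factor 1 motif, GCGCA followed by any base and GCGC, was in 25.4% of member windows and in 4.6% of all 32851 windows. The ETS motif CCGGAAG, read by the GABP factors among others, was in 22.5% against 8.86%, and the YY1 motif AGATGGC was in 15.5% against 6.4%. The general promoter motifs were at shares closer to the background, with the GC box GGGCGG in 36.6% against 35.7% and CCAAT in 42.3% against 37.4%. Different motifs shared bases in 1 member window. The background holds the windows of all genes, tested here or not, and shares among expressed genes alone were not computed. A match is a run of letters, not a measured binding site.

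Below are the 150 bases before the start for Ndufa8 and Ndufs6, 2 complex I subunit genes with the steadiest levels after library medians were removed among members with an NRF1 match in that stretch. They are followed by the same stretch of Cox6b1 and Cox6b2. All 4 lie on the minus strand and are printed 5′ to 3′ along the gene, at chr2:36049339-36049488, chr13:73328483-73328632, chr7:30626115-30626264 and chr7:4753095-4753244 in that order. Capitals mark motif matches.
Ndufa8: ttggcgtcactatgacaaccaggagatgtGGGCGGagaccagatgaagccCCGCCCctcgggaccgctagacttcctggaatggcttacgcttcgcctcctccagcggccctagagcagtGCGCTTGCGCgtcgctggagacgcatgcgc
Ndufs6: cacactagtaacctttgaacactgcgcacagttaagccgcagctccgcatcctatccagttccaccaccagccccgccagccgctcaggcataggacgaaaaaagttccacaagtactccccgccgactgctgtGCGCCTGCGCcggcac
Cox6b1: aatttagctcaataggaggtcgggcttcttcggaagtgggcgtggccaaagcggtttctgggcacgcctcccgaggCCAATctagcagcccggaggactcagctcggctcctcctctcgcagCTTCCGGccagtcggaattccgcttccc
Cox6b2: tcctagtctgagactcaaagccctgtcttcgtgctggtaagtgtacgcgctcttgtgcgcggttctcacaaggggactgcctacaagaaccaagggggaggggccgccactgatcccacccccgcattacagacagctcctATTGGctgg
Ndufa8 has 2 GC boxes and an NRF1 match at bases -30 to -21 before the start, and Ndufs6 has an NRF1 match at -16 to -7. Cox6b1 has a CCAAT match and an ETS match at -28 to -22. The Cox6b2 stretch holds a CCAAT match at -9 to -5 and none of the NRF1, ETS or YY1 letters. That absence is not particular to Cox6b2. Of the 65 members with a window, 28 had none of the NRF1, ETS or YY1 letters in their full windows.

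Levels are compared between genes as CPM per kilobase of transcript. The highest was Atp5b, the catalytic beta subunit of ATP synthase, at 941 CPM per kb, and the lowest was Cox4i2, the alternative form of cytochrome c oxidase subunit 4, at 1.86 CPM per kb. The median member stood at 124 CPM per kb. The median of the genes of complex I was 80.5 CPM per kb in the controls and 86.6 in the knockouts, of complex II 106 and 113, of complex III 199 and 221, of complex IV 170 and 189, and of complex V 213 and 225. Within complex IV, 3 isoform genes lay under 6 CPM per kb and the other 13 above 70.

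**Figure D3:**
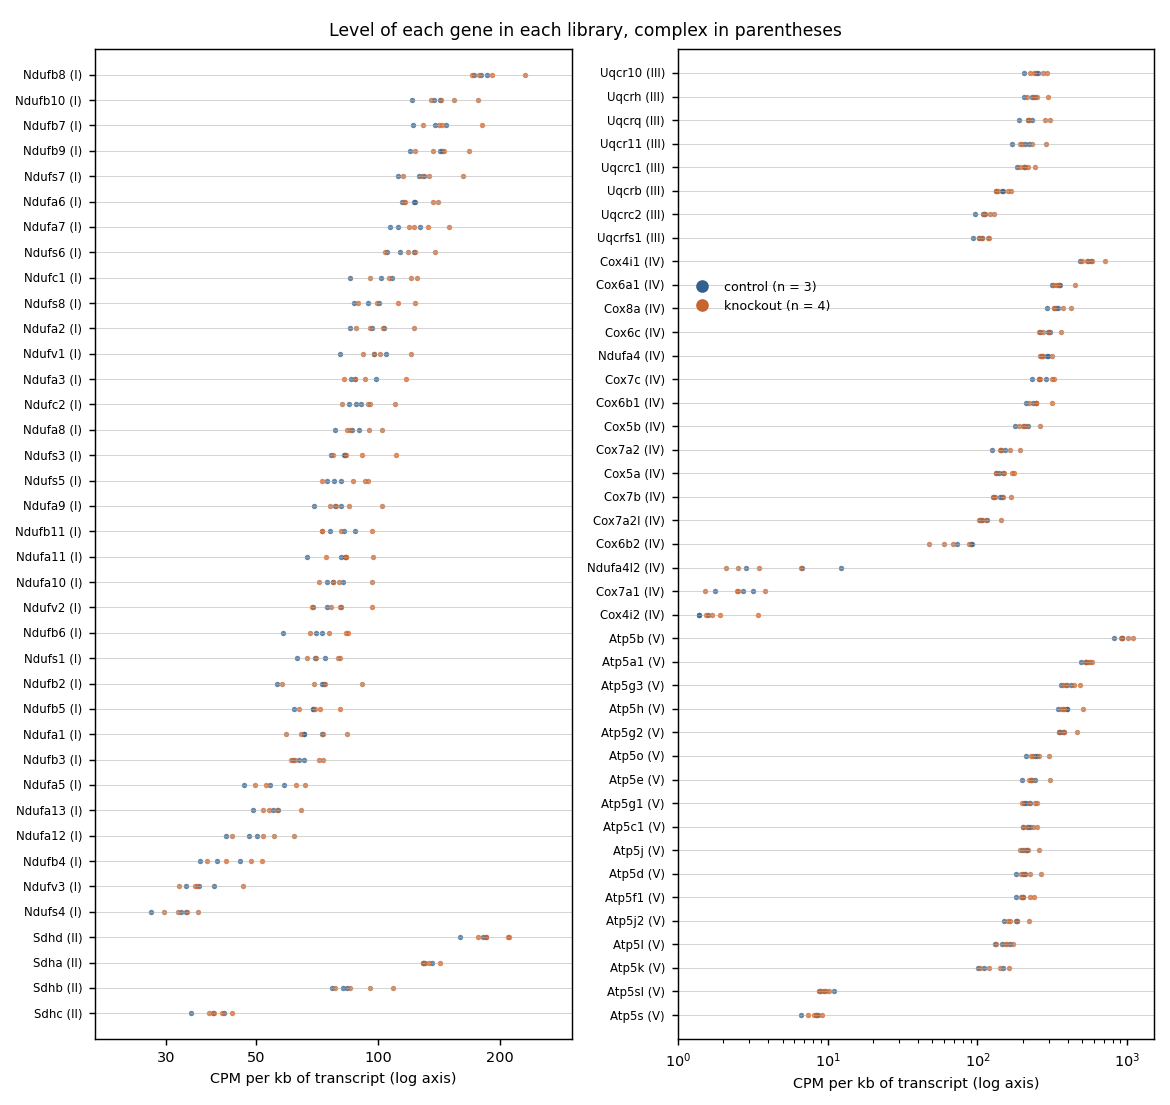
Level of the members drawn as CPM per kb of transcript (horizontal log axis, with a different range in each panel) in the 3 control (blue) and 4 knockout (orange) libraries, by complex. The colours overlap for every gene drawn, Atp5b is highest and Ndufa4l2, Cox7a1 and Cox4i2 are lowest.

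In complex I, 34 of 35 genes had point estimates above 0 and none passed the test, with a median log2 fold change of 0.11 and a range from -0.02 (Ndufb11) to 0.22 (Ndufb6). Ndufb6, a subunit of the membrane arm, stood at 47.9, 38.4 and 46.2 CPM in the controls and at 55.5, 49.9, 54.9 and 44.8 CPM in the knockouts. Knockout replicate 4 fell below 2 of the controls, so the groups overlapped. Its log2 fold change was 0.22 (SE 0.11, edgeR adjusted p = 0.539). Ndufb10, another membrane arm subunit, stood at 101, 88.8 and 104 CPM against 113, 104, 129 and 98.8 CPM (0.18, SE 0.10, edgeR adjusted p = 0.585). Ndufa7, a peripheral subunit, stood at 66.8, 56.4 and 59.2 CPM against 70.1, 64.5, 79.1 and 62.9 CPM (0.19, SE 0.10, edgeR adjusted p = 0.574). For all 3 genes control replicate 2 was the lowest library.

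Ndufa12, a subunit that enters late in assembly, was at 52.0 ± 4.6 CPM (SD, n = 3) in the controls and 59.2 ± 8.4 CPM (SD, n = 4) in the knockouts, a log2 fold change of 0.19 (SE 0.12). Ndufb8, the complex I gene with the highest level per kb, was at 126, 117 and 122 CPM against 129, 120, 157 and 116 CPM, and knockout replicate 3 alone stood well above the rest. The lowest per kb were Ndufs4, a subunit needed for a stable complex, at 32.1 CPM per kb, and Ndufv3, of the NADH-binding module, at 36.9. Their log2 fold changes were 0.07 and 0.04. Ndufv1, Ndufv2, Ndufs1, Ndufs3, Ndufs7 and Ndufs8, core subunits of the arm that takes up the electrons, ran from 0.10 for Ndufv2 to 0.17 for Ndufs3 and Ndufs8. They thus lay inside the range of the accessory subunits.

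Complex II joins the chain to the citric acid cycle and is encoded by 4 nuclear genes only. Sdha, the flavoprotein that oxidises succinate, was at 377, 373 and 393 CPM in the controls and at 387, 378, 411 and 373 CPM in the knockouts. It was among the steadiest genes between groups, with a log2 fold change of 0.02 and a 95% interval from -0.14 to 0.19. Sdhb, the iron-sulphur subunit, was at 95.5, 87.9 and 93.6 CPM against 109, 97.5, 124 and 89.4 CPM (0.18, SE 0.11, edgeR adjusted p = 0.605). Sdhd, a membrane anchor, was at 227, 195 and 224 CPM against 259, 227, 257 and 217 CPM (0.16, SE 0.09, edgeR adjusted p = 0.61). Sdhc, the other anchor, had a log2 fold change of 0.08 (SE 0.08) and the lowest level per kb of the complex, 39.6 against 186 for Sdhd. In Sdhb and Sdhd, 1 knockout library each fell among or below the controls.

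In complex III all 8 point estimates were above 0, with a median of 0.14, and 0 passed the test. Uqcrq, a small subunit of the ubiquinol-binding part, was at 94.0, 77.2 and 87.5 CPM in the controls and at 123, 88.2, 114 and 89.9 CPM in the knockouts. Knockout replicates 1 and 3 were above every control, and replicates 2 and 4 lay between control replicates 3 and 1. Its log2 fold change of 0.27 (SE 0.13, edgeR unadjusted p = 0.0707) had the smallest p of all members. Uqcrfs1, the Rieske iron-sulphur protein, was at 145, 126 and 139 CPM against 163, 145, 160 and 140 CPM (0.15, SE 0.08, edgeR adjusted p = 0.575), and Uqcrc2, a core protein, at 214, 182 and 208 CPM against 231, 209, 243 and 210 CPM (0.15, SE 0.09, edgeR adjusted p = 0.61). In both genes control replicate 2 was the lowest library and knockout replicates 2 and 4 lay close to or under control replicate 1. The small subunits Uqcr10 and Uqcrh, highest per kb at 247 and 239, had log2 fold changes of 0.13 and 0.14, and Uqcr11, also small, 0.19 (SE 0.15).

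In complex IV, 13 of 16 point estimates were above 0, with a median of 0.10, and 0 passed the test. Leaving out knockout replicate 3 brought that median to 0.0065, and leaving out control replicate 2 to 0.054. Cox4i1, the common form of subunit 4 and the highest gene of the complex per kb, was at 410, 362 and 425 CPM in the controls and at 432, 400, 529 and 370 CPM in the knockouts, a log2 fold change of 0.12 (SE 0.13). Knockout replicate 3 was well above the other libraries and replicate 4 was near the lowest. Cox8a and Cox6a1, the forms of subunits 8 and 6a found in most tissues, had 0.15 (SE 0.11) and 0.08 (SE 0.12). Cox7a2, the common form of subunit 7a, had 0.20 (SE 0.12), and Cox7a2l, which helps complexes III and IV associate, 0.10 (SE 0.11). Ndufa4 was at 134, 121 and 132 CPM against 123, 119, 142 and 120 CPM, with a log2 fold change of -0.04 and a 95% interval from -0.22 to 0.15.

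Several complex IV subunits have a second gene used in particular tissues or conditions, and here the members differed most. Of the 4 genes under the count threshold, Cox6a2 (14 counts summed over the 7 libraries), Cox8b (1), Cox8c (1) and Cox7b2 (0) are all forms used mainly in muscle or testis. The members with the lowest summed counts were Cox7a1 (153 counts), the muscle form of subunit 7a, Cox4i2 (198) and Ndufa4l2 (745). Cox7a1 was at 0.69, 1.08 and 1.24 CPM in the controls and at 0.60, 1.49, 0.99 and 0.97 CPM in the knockouts, with wide overlap and a log2 fold change of 0.03 (SE 0.37). Cox4i2, known to be induced by low oxygen, was at 1.01, 1.16 and 1.01 CPM against 2.51, 1.40, 1.23 and 1.12 CPM. Its log2 fold change was 0.55 (SE 0.34, edgeR adjusted p = 0.619), and knockout replicate 1 alone lay far above the others. Without that library the log2 fold change was 0.23.

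Ndufa4l2, a paralogue known as a target of hypoxia-inducible factor, was at 2.67, 6.29 and 11.4 CPM in the controls and at 2.35, 3.25, 6.25 and 1.95 CPM in the knockouts. The controls spanned a wider range than the difference between the groups, and control replicate 1 lay among the knockouts. Its log2 fold change was -0.97 (SE 0.50, edgeR adjusted p = 0.542), with a 95% interval from -2.10 to 0.15. It was -0.38 without control replicate 3 and -1.43 without knockout replicate 3. Ndufa4l2 overlaps Shmt2 on the opposite strand, and the strand setting of the counting is not given, so reads of the 2 genes cannot be told apart.

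Cox6b2 was the best expressed of these minor forms. It is known as the testis form of subunit 6b, whose common form is Cox6b1, and lies at chr7:4751792-4753094 (mm10). Cox6b2 was at 42.1, 33.8 and 42.9 CPM in the controls and at 22.1, 31.8, 40.7 and 27.9 CPM in the knockouts. Knockout replicate 3 lay among the controls and the other 3 knockouts below all of them. The log2 fold change was -0.37 (SE 0.19, edgeR adjusted p = 0.532). Cox6b1 was at 151, 131 and 146 CPM against 153, 151, 194 and 136 CPM, with a log2 fold change of 0.15 (SE 0.12).

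Within each library, Cox6b2 made up a smaller share of the pair in the knockouts. Of the summed Cox6b1 and Cox6b2 level per kb, Cox6b2 accounted for 27.0%, 25.5% and 28.1% in the control libraries and for 16.1%, 21.8%, 21.8% and 21.4% in the knockout libraries. The mean was 26.9% ± 1.3 (SD, n = 3) against 20.3% ± 2.8 (SD, n = 4), and every knockout lay below every control. The log2 ratio of Cox6b2 to Cox6b1 differed by -0.54 (exact permutation p = 0.0286, two-sided, the smallest this design allows; 0.20 after Benjamini-Hochberg adjustment over the 7 isoform pairs compared). It therefore failed the correction. Leaving out any 1 library gave -0.41 to -0.59, and leaving out control replicate 2 and knockout replicate 3 together gave -0.64. This comparison within pairs was added after the gene values had been seen.

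The other 6 pairs overlapped between groups. Ndufa4l2 made up 0.96%, 2.45% and 4.0% of the Ndufa4 pair in the control libraries and 0.91%, 1.31%, 2.09% and 0.78% in the knockout libraries (exact permutation p = 0.229). Cox4i2 made up 0.25%, 0.33% and 0.24% of its pair against 0.59%, 0.36%, 0.24% and 0.31% (exact permutation p = 0.371). The shares of Cox7a1 and Cox7a2l against Cox7a2 gave exact permutation p-values of 0.657 and 0.314. Of the 3 genes for the identical mature c subunit of ATP synthase, Atp5g1 took 35.5% ± 1.8 (SD, n = 3) of its sum with Atp5g3 in the controls and 35% ± 1.2 (SD, n = 4) in the knockouts. Atp5g2 took 48.1% ± 2.2 and 48.1% ± 3.1 of its sum with Atp5g3, so neither share moved beyond its spread.

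**Figure D4:**
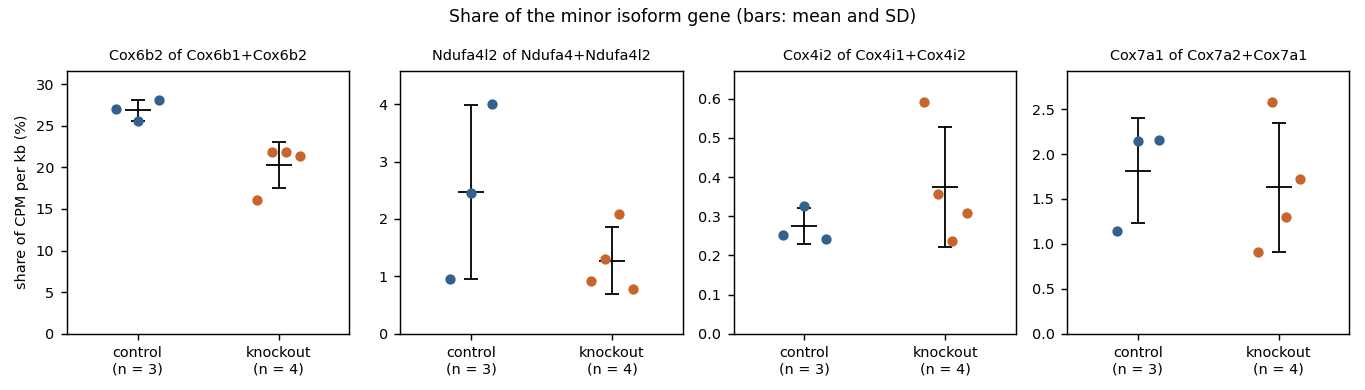
Share of the minor gene in the summed CPM per kb of 4 isoform pairs (vertical axis, %, from 0; a different range in each panel), by library, with bars for the mean and SD. For Cox6b2 the controls lie between 25.5% and 28.1% and the knockouts between 16.1% and 21.8%; in the other pairs the groups overlap.

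In complex V, 16 of 17 point estimates were above 0, with a median of 0.10, and 0 passed the test. Atp5b was at 1776, 1559 and 1755 CPM in the controls and at 1948, 1768, 2083 and 1731 CPM in the knockouts, a log2 fold change of 0.15 (SE 0.10, edgeR adjusted p = 0.645). Atp5a1, the alpha subunit, which forms the catalytic head with the beta subunit, was at 1303, 1221 and 1314 CPM against 1444, 1346, 1394 and 1294 CPM (0.10, SE 0.08). Knockout replicate 4 fell inside the control range in both genes, and replicate 2 did so for Atp5b. The delta subunit Atp5d, part of the central stalk, was at 0.18 (SE 0.11) and Atp5f1, of the peripheral stalk, at 0.15 (SE 0.09). The c subunit genes Atp5g1, Atp5g2 and Atp5g3, which form the rotating ring, were at 0.09, 0.12 and 0.12.

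Atp5s and Atp5sl, which are not ATP synthase subunits, were the lowest genes of this family at 8.09 and 9.62 CPM per kb. Atp5s had a log2 fold change of 0.07 (SE 0.14). Atp5sl was at 22.7, 26.5 and 21.1 CPM in the controls and at 21.1, 21.7, 23.4 and 24.4 CPM in the knockouts, a log2 fold change of -0.05 (SE 0.12). Unlike the structural subunits, Atp5sl was highest in control replicate 2.

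Other genes that serve the chain were taken from lists by function, and 0 of their members passed the edgeR or the DESeq2 adjusted threshold. The electron carrier list holds Ndufab1, a complex I subunit gene whose symbol the member rule does not match. Over all tested genes, 52.4% of point estimates were above 0 and 10.9% had an unadjusted p under 0.05 by edgeR in either direction. Of 15 complex I assembly factors 13 had point estimates above 0 (median 0.09, 1 at an unadjusted p under 0.05, higher). Of 30 assembly factors of complexes II to V 28 did (median 0.11, 3 higher and 0 lower at an unadjusted p under 0.05). Lyrm7, which handles the Rieske protein before it enters complex III, was at 3.50, 4.06 and 3.54 CPM in the controls and at 4.70, 5.10, 6.11 and 5.65 CPM in the knockouts, which did not overlap (log2 fold change 0.54, SE 0.18, edgeR adjusted p = 0.292). Atpaf2, an assembly factor of the ATP synthase head, was at 51.9, 50.2 and 51.1 CPM against 62.6, 55.7, 62.2 and 56.4 CPM (0.21, SE 0.08, edgeR adjusted p = 0.354), again without overlap. Of all tested genes 11.2% had groups that did not overlap.

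Of 18 genes for electron carriers and their synthesis, 11 were above 0 (median 0.05, 1 higher and 1 lower at an unadjusted p under 0.05). Cycs, cytochrome c, was at 171, 158 and 153 CPM in the controls and 235, 172, 196 and 171 CPM in the knockouts (0.27, SE 0.12, edgeR adjusted p = 0.457). Sqrdl, which feeds electrons from sulphide into the ubiquinone pool, was at 4.84, 8.40 and 8.46 CPM against 2.73, 3.30, 5.68 and 3.70 CPM (-0.91, SE 0.29, edgeR adjusted p = 0.275), with knockout replicate 3 above control replicate 1. Of 18 citric acid cycle genes 14 were above 0 (median 0.06, 0 higher and 1 lower at an unadjusted p under 0.05). The one lower was Pdha1, of pyruvate dehydrogenase, at 204 ± 3.9 against 180 ± 11 CPM (-0.19, SE 0.07, edgeR adjusted p = 0.397). Its groups did not overlap either.

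Of 18 regulators of mitochondrial biogenesis 12 were above 0 (median 0.03), and 0 had an unadjusted p under 0.05. Nrf1, the factor whose motif was searched above, was at 63.1, 64.8 and 62.6 CPM in the controls and at 73.6, 75.1, 72.2 and 63.4 CPM in the knockouts (0.16, SE 0.08, edgeR adjusted p = 0.515). It was not highest in knockout replicate 3 or lowest in control replicate 2, unlike most members. The mitochondrial ribosome, which translates the subunits encoded in mitochondrial DNA, had its extremes in the same libraries as the respiratory chain. Of its 77 genes 76 were above 0 (median 0.15). At an unadjusted p under 0.05, 11 were higher and 0 lower, against 10.9% of all tested genes in either direction. Of the 77, 51 were highest in knockout replicate 3 and 55 lowest in control replicate 2, against 22.3% and 19.8% of all tested genes. Without knockout replicate 3 their median was 0.09. Mrpl17, of the large subunit, was at 57.3, 55.8 and 56.4 CPM against 75.6, 63.3, 69.0 and 62.8 CPM (0.26, SE 0.09, edgeR adjusted p = 0.297).

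Markers of other cells varied over the same libraries. Of the 18 erythroid markers 16 were lowest in control replicate 2 and 11 highest in knockout replicate 3, against 19.8% and 22.3% of all tested genes. Their sum was 6083, 3721 and 6227 CPM in the controls and 6702, 6772, 7757 and 5867 CPM in the knockouts. Control replicate 2 thus stood lowest and knockout replicate 3 highest in both the erythroid sum and the respiratory chain. Of the 19 hepatocyte markers 16 were also lowest in control replicate 2 and 0 were highest in knockout replicate 3, and their sum was 11355 CPM in the former and 13871 CPM in the latter, the lowest values of the 7 libraries. Lymphoid markers summed to 63.4 CPM in knockout replicate 3, to 9.17, 9.72 and 11.3 CPM in the other knockouts and to 6.08 to 8.61 CPM in the controls. Neutrophil granule markers were highest in control replicate 2, at 9019 CPM. Of these 16 markers 8 were called lower in the knockouts, against 0.559% of all tested genes called in either direction. The part of cell composition in the members' levels was not tested.

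**Figure D5:**
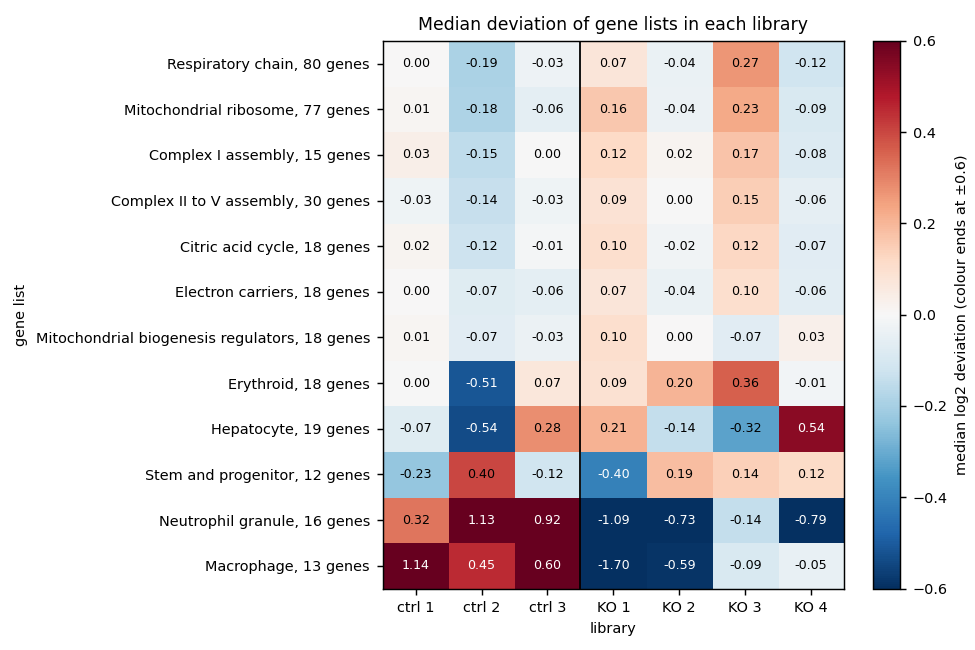
Median log2 deviation from each gene's own mean (colour, and printed in each cell) for the respiratory chain and 11 other gene lists (vertical axis) in the 7 libraries (horizontal axis, controls left of the line). The respiratory chain and the mitochondrial ribosome share their low value in control replicate 2 (-0.19 and -0.18) and their high value in knockout replicate 3 (0.27 and 0.23), and the erythroid list has its lowest and highest values there too (-0.51 and 0.36).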

How the data were processed

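Per the labels' protocols, RNA of MACS-selected cells was extracted on RNeasy columns and made into polyA libraries with a stranded TruSeq kit. The deposited table holds raw counts per gene symbol. HISAT2, the build mm10, featureCounts and DESeq2 are named, per the submitters' processing notes. Their versions, the annotation, the strandedness and the handling of multi-mapping reads are not given in the sources. Of the 80 members 36 overlap another gene in GENCODE, and many have processed pseudogenes, so their counts can hold or lack reads of other genes. The authors' deposited table of their comparison gives a signal per library, which is the count over that library's size factor, log2 fold changes, a test score, and p-values with adjusted p-values. It was used only for the values credited to it. Dates stood in place of 14 gene symbols and were converted back, and 11634 symbols had no read. Genes encoded in mitochondrial DNA were not analysed here.

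Genes were kept with filterByExpr, which left 14679 and all 80 members. TMM scaling and the edgeR quasi-likelihood F test followed (edgeR 4.0.16, R 4.3.3), on all 7 libraries with group as the only term. A gene was called at a Benjamini-Hochberg adjusted p under 0.05 over all tested genes. CPM use TMM-scaled totals, and the 95% intervals come from the same fit. Levels per kb use the shortest principal transcript of GENCODE, and library deviations use log2(CPM + 0.1). The 7 isoform ratios and Brd9 were tested by exact permutation of the group labels over the libraries, 35 arrangements in all. The fit was tested on simulated data. Alternatives were DESeq2 size factors, total counts for scaling, no filter, a mean of at least 1 CPM, DESeq2 1.42.0, limma-voom (limma 3.58.1), a replicate block, and leaving out each library in turn.

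The members and gene lists were chosen with earlier results of these data known. Genes named are, in each complex, the 4 with the smallest p and the 2 highest and 2 lowest per kb, plus isoform pairs, complex II, genes next to the count threshold, and up to 3 of each list by smallest p. Ndufb11, Ndufa8, Ndufs6, Uqcrc1, Shmt2 and the core subunits Ndufv1, Ndufv2, Ndufs1, Ndufs3, Ndufs7 and Ndufs8 are named outside that rule. Some items are not reported here one by one, though the counts over all members include them.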

Additional observations from a re-analysis of the deposited data

Results flagged for a closer look

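One isoform share had a library far from the others of its group. In knockout replicate 1, Cox6b2 made up 16.1% of the Cox6b1 and Cox6b2 level, against 21.4%, 21.8% and 21.8% in the other knockouts. The gap to the nearest library was 0.921 of the group's range, above Dixon's 95% limit for 4 libraries. Of 51 such groups examined 1 passed that limit, and chance passes about 1 in 20.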

How the results depend on the processing

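The count of respiratory chain genes past the adjusted threshold was 0 under every setting run. The count over all tested genes, 82, became 228 with no filter on low counts, 393 with DESeq2, 20 to 120 when 1 library was left out, and 130 without control replicate 2 and knockout replicate 3 together. Members at an unadjusted p under 0.05 numbered 3 with no filter, 1 with DESeq2, 0 to 8 with 1 library left out (8 of 80 without knockout replicate 4, against 12.1% of all genes) and 2 without both, against 11.4%. Members whose groups did not overlap numbered 0 to 16 with 1 library left out (16 of 80 without knockout replicate 4, against 18.9% of all genes) and 7 without both, against 28.7%, since fewer libraries leave fewer chances to overlap. The cause of the other shifts was not tested.

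Same-numbered libraries were not treated as pairs. Their deviations from group means correlated at 0.14, 0.02 and -0.02, and not every library correlated best with its own number. That check covers replicates 1 to 3 only, too few to exclude a pairing. A fit with a replicate block covers replicates 1 to 3 and so also leaves out knockout replicate 4. It gave 126 calls over all genes, 0 members called and a median of 0.168 over the members. By edgeR, 28 of 80 members had an unadjusted p under 0.05, against 16.7% of all genes. The same libraries without the block gave 37 calls over all genes and 8 members at an unadjusted p under 0.05, against 12.1% of all genes. The 16 members without overlap in the block fit are those of leaving out knockout replicate 4 alone.

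Control replicate 2 was the lowest control and knockout replicate 3 the highest knockout for the members (median deviations -0.19 and 0.27). Leaving out both was therefore bound to lower the median, and is no test of its direction. In that setting the median log2 fold change turned to -0.022 for all members. It was -0.029 for complex I, -0.011 for complex III, -0.056 for complex IV and -0.0020 for complex V. Signs also turned there for Atp5s (-0.091), Atp5sl (0.034), Cox4i1 (-0.059), Cox6a1 (-0.096), Cox6b1 (-0.019), Cox7a2l (-0.053), Ndufb8 (-0.025), Ndufs4 (-0.059), Ndufv3 (-0.13), Sdha (-0.021), Sdhc (-0.032), Uqcr10 (-0.020), Uqcr11 (-0.044) and Uqcrh (-0.023). With 1 library left out, the sign turned for Atp5s (-0.035 to 0.14), Atp5sl (-0.12 to 0.049), Cox6a1 (-0.041 to 0.14), Cox7a1 (-0.22 to 0.20), Cox7a2l (-0.017 to 0.15), Ndufs4 (-0.012 to 0.13), Ndufv3 (-0.079 to 0.11) and Sdha (-0.0066 to 0.047). With 1 library left out, the median ran from 0.034 to 0.17 in complex I, 0.049 to 0.16 in complex II, 0.063 to 0.20 in complex III, 0.0065 to 0.16 in complex IV and 0.034 to 0.15 in complex V. Of the 37 members named by the rule, 22 kept their sign under all 15 settings run, and members named outside the rule were not followed through them. Cox7a1 and Cox4i2 rest on 153 and 198 counts over 7 libraries, which limits their precision.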
